A study of Homo sapiens with 30 samples.

Results

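The genes of cholesterol and fatty acid synthesis were followed in cells of HEK293, an established line from human embryonic kidney, that expressed engineered tRNAs. The 31 members were taken by gene symbol from a list that was drawn up with earlier results of these data known; each matched 1 of the 58278 genes in the count tables, and all 31 were among the 22321 genes tested. The series compares cells given an EGFP(mutant)-mCherry mistranslation reporter together with its missense correcting tRNA (mc-tRNA) against cells given that reporter alone, which asks what an mc-tRNA does to mRNA levels. The 5 pairs of groups were Ser-tRNA_Arg(CCG) with EGFP(R65) against EGFP(R65) alone, Arg-tRNA_Gln(CUG) with EGFP(R96Q) against EGFP(R96Q) alone, Arg-tRNA_Cys(GCA) with EGFP(R96C) against EGFP(R96C) alone, Arg-tRNA_His(GUG) with EGFP(R96H) against EGFP(R96H) alone and Arg-tRNA_Trp(CCA) with EGFP(R96W) against EGFP(R96W) alone. In these names the first amino acid is the one the tRNA is meant to carry, and the second is the one whose codon is read by the anticodon in brackets. Every group held 3 libraries, described by the labels as independent replicates. All 30 libraries shared the cell line, the wild-type genotype label, lipofection of 1 plasmid, sorting of mCherry-positive cells after 48 h and polyA selection, so the cells given a reporter alone were also transfected and sorted. Untransfected cells are not analysed here.

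Cells make cholesterol from acetyl-CoA through mevalonate, farnesyl diphosphate, squalene and lanosterol, and fatty acids from the same acetyl-CoA through malonyl-CoA. Most genes of both routes are targets of the SREBP transcription factors, encoded by SREBF1 and SREBF2. SCAP carries the SREBP precursors from the endoplasmic reticulum to the Golgi, where they are cleaved, and INSIG proteins hold SCAP back when sterols are plentiful. Because INSIG1 is itself an SREBP target, its mRNA is often read as a gauge of that pathway.

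Gene totals were 39017548 to 55446962 counts per library, and the members had 202 to 55689 counts, or 4.89 to 1020 CPM (the count scaled by the library total and the TMM factor of that library, the scale of all levels below unless stated). The limit that a count of 0 sets, 3 counts in a library, lay at 0.0541 to 0.0769 CPM and covers counting error only. The 6 EGFP(R65) libraries stood apart from the 24 EGFP(R96) libraries on the first principal component and had 0 ERCC spike-in counts against 10 to 106, so between EGFP(R65) and the EGFP(R96) reporters the reporter and a batch cannot be told apart. Each mc-tRNA was compared within its own reporter. ERCC counts differed without overlap inside each EGFP(R96) pair too, and were higher with the reporter alone. They were 78 to 106 against 27 to 50 for EGFP(R96Q) and 52 to 82 against 20 to 40 for EGFP(R96C). For EGFP(R96H) they were 20 to 22 against 10 to 17, and for EGFP(R96W) 34 to 61 against 25 to 32. What lay behind this was not tested. All 8 markers of HEK293 cells were detected in all 30 libraries (VIM 426 to 608 CPM, LIN28B 73.6 to 144.6 CPM). The lowest of them were LHX1 at 1.44 to 6.75 CPM and PAX2 at 1.72 to 4.84 CPM. Of 11 markers of other cell types, 8 were at no more than 0.339 CPM; the other 3 were ALB, PLIN1 and COL3A1, at up to 10.2, 9.46 and 3.89 CPM.

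Promoter windows were available for 27 members and are shown for 5, to give the sequence beside the genes whose values carry the results: SREBF2, whose window held the sterol regulatory element searched for, INSIG1, LSS and FADS1, which are among the deepest falls with some mc-tRNA, and HSD17B7, the largest rise. Windows run from 250 bases before to 50 bases after the start site (RefSeq, GRCh38.p14) and are written 5′ to 3′ on the strand of the gene. They lie at chr22:41832855-41833154, plus strand for SREBF2, chr7:155297628-155297927, plus strand for INSIG1, chr21:46228725-46229024, minus strand for LSS, chr11:61816954-61817253, minus strand for FADS1 and chr1:162790452-162790751, plus strand for HSD17B7. Capitals mark the sterol regulatory element TCACNCCAC, in which N is any base, and the NF-Y box CCAAT, which reads ATTGG when it lies on the other strand.
SREBF2: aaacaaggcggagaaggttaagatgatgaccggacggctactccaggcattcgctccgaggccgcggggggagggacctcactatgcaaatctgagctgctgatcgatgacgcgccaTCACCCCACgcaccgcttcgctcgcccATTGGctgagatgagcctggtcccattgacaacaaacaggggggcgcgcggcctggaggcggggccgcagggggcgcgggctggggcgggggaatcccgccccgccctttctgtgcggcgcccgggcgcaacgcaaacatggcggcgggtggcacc
INSIG1: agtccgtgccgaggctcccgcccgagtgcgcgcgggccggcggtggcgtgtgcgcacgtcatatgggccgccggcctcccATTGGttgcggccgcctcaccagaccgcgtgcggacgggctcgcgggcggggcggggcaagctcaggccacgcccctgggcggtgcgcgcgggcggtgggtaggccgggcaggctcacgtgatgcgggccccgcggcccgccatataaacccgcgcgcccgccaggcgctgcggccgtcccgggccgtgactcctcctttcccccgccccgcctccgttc
LSS: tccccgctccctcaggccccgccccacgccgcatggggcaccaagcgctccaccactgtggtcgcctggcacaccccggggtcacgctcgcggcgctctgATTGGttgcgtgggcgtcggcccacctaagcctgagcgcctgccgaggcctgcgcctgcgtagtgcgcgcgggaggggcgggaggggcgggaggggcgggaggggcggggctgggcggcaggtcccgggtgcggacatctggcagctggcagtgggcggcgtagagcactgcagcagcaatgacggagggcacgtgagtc
FADS1: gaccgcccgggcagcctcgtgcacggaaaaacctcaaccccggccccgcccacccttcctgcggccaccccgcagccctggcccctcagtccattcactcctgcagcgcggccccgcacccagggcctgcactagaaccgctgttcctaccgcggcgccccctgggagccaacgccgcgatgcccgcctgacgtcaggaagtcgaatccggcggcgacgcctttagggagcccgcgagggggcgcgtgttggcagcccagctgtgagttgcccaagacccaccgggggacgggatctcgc
HSD17B7: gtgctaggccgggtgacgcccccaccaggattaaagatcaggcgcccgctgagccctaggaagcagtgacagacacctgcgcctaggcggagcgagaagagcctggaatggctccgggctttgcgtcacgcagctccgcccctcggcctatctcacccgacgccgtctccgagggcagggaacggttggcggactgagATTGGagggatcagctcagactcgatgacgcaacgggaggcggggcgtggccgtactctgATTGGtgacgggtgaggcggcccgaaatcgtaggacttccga

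The sterol regulatory element was searched in this 1 spelling on both strands, and it lay before the start site in the window of SREBF2, 1 of 27 members (3.7%), against 1.39% of the 27305 genes in the table. CCAAT was in at least 1 window of 20 of 27 members (74.1%), against 39.7% of all genes in the table and 42.2% of the tested genes in it. The GC box GGGCGG was in 26 of 27 (96.3%), against 48.3% of all genes and 73.3% of the tested genes, and the E-box CACGTG in 4 of 27 (INSIG1, LSS, SC5D and SCAP; 14.8%), against 8.77% of all genes and 12% of the tested genes. In the printed windows INSIG1, LSS and SREBF2 each hold 1 NF-Y box, HSD17B7 holds 2 and FADS1 holds 0. These are letter matches; neighbouring GC box matches can overlap each other, and the sterol regulatory element match overlapped no other match.

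The 5 mc-tRNAs divided into 3 that moved many members and 2 that moved few. With Ser-tRNA_Arg(CCG) 4 members rose and 14 fell, with Arg-tRNA_Cys(GCA) 6 rose and 17 fell, and with Arg-tRNA_Trp(CCA) 6 rose and 10 fell. With Arg-tRNA_His(GUG) 3 rose and 1 fell, and with Arg-tRNA_Gln(CUG) 0 were called. A gene was called when its edgeR quasi-likelihood p, adjusted by Benjamini-Hochberg over all tested genes, was under 0.05. These counts stand beside large responses of the whole table. With Ser-tRNA_Arg(CCG) 26.6% of all tested genes rose and 30.7% fell, against 12.9% and 45.2% of the members, and the median log2 fold change of the members was -0.13 against -0.02 over all genes. Leaving out any 1 library of that pair gave 2 to 3 members higher and 12 to 14 lower. With Arg-tRNA_Cys(GCA) 30.2% rose and 30.5% fell, against 19.4% and 54.8% of the members, and the medians were -0.27 and -0.04. With Arg-tRNA_Trp(CCA) 20.7% rose and 21.7% fell, against 19.4% and 32.3% of the members, and the medians were -0.06 and -0.03. With Arg-tRNA_His(GUG) the shares of all genes were 1.56% and 0.95%, and those of the members 9.68% and 3.23%, but leaving out 1 library of the pair gave 0 to 3 members higher, 0 to 1 lower and 53 to 636 called genes in place of 560. With Arg-tRNA_Gln(CUG) the shares of all genes were 0.273% and 0.278%. When libraries were scaled to their totals in place of TMM factors, the median difference in mean log2 CPM over all genes was -0.57 in place of -0.03 with Arg-tRNA_Cys(GCA) and -0.16 in place of -0.03 with Arg-tRNA_Trp(CCA), and the share of called genes that were higher was 20.2% in place of 49.8% and 31.4% in place of 48.8%. With Arg-tRNA_His(GUG) this share was 48.4%, against 62.1% on the TMM scale, and for Arg-tRNA_Gln(CUG) the shares were 38.3% and 49.6%. With Arg-tRNA_Trp(CCA) 3 members were higher and 17 lower under library totals (9.68% and 54.8%), beside 14.3% and 31.3% of all genes. Directions below are therefore relative to the TMM scale.

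**Figure D1:**
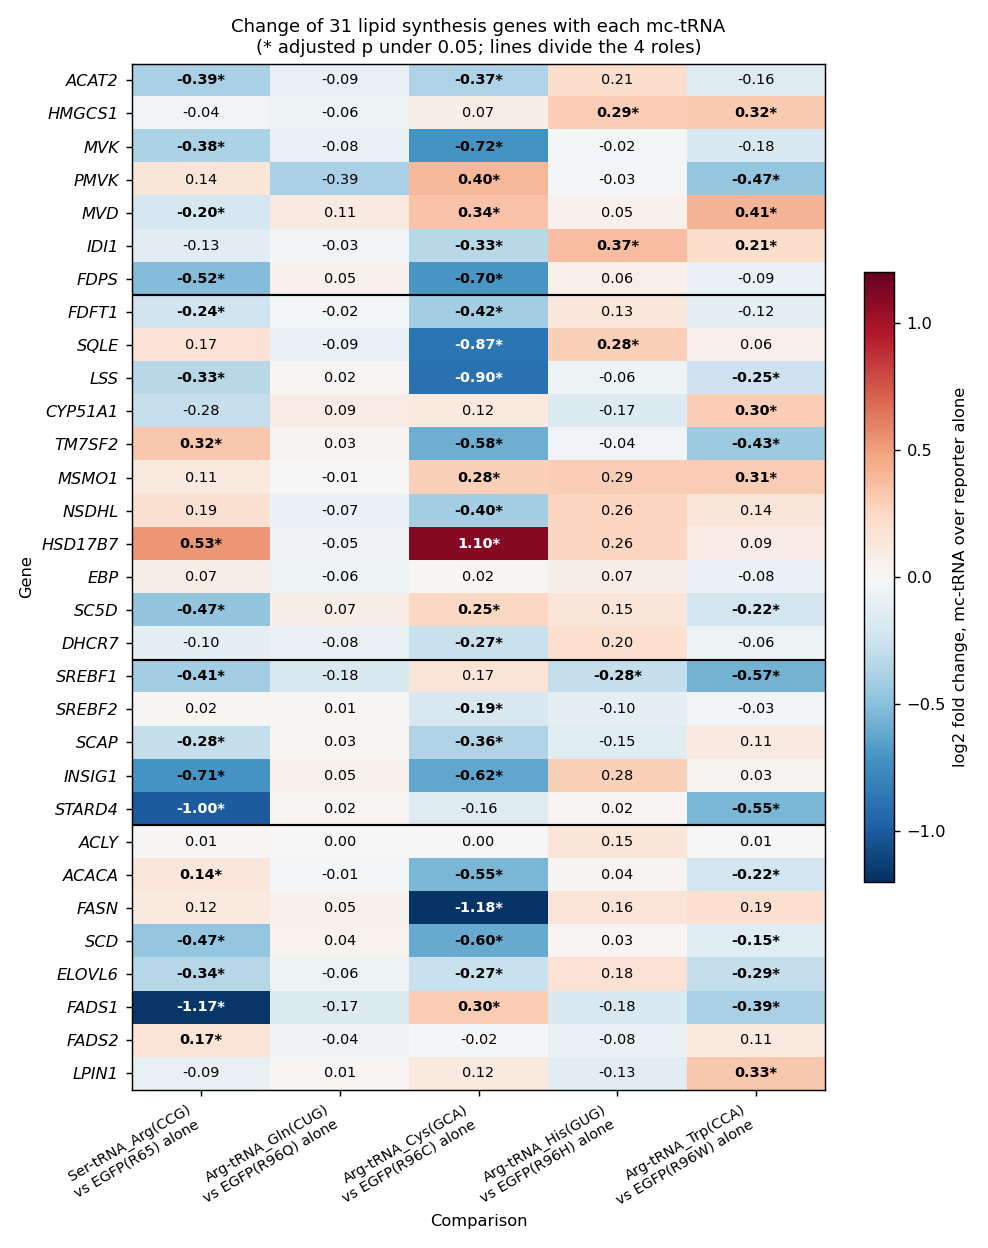
Log2 fold change of each member (rows, grouped by role) with each mc-tRNA over its reporter alone (columns), 3 libraries in each group. Asterisks mark an edgeR adjusted p under 0.05. The falls are deepest for FADS1 and STARD4 with Ser-tRNA_Arg(CCG) and for FASN, LSS and SQLE with Arg-tRNA_Cys(GCA), HSD17B7 is the one member above 1, and no cell of the Arg-tRNA_Gln(CUG) column is called.

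The rises and falls by role, here and below, stand beside 26.6% and 30.7% of all genes with Ser-tRNA_Arg(CCG). These shares were 30.2% and 30.5% with Arg-tRNA_Cys(GCA), 20.7% and 21.7% with Arg-tRNA_Trp(CCA) and 1.56% and 0.95% with Arg-tRNA_His(GUG). Under library totals they were 14.1% and 55.6% with Arg-tRNA_Cys(GCA) and 14.3% and 31.3% with Arg-tRNA_Trp(CCA). Of the 7 enzymes from acetyl-CoA to farnesyl diphosphate, 0 rose and 4 fell with Ser-tRNA_Arg(CCG), and 2 rose and 4 fell with Arg-tRNA_Cys(GCA). With Arg-tRNA_Cys(GCA) under library totals, 0 rose and 6 fell. With Arg-tRNA_Trp(CCA) 3 rose and 1 fell on the TMM scale, but under library totals 2 (HMGCS1 and MVD) rose and 4 (ACAT2, MVK, PMVK and FDPS) fell. With Arg-tRNA_His(GUG) 2 rose and 0 fell on both scales. FDPS, the synthase of farnesyl diphosphate (ENSG00000160752.14, chromosome 1, 155308748 to 155320666), had 72.9, 77.7 and 80.4 CPM with Ser-tRNA_Arg(CCG), against 109, 103 and 119 CPM with EGFP(R65) alone, and 102, 97.05 and 113 CPM with Arg-tRNA_Cys(GCA), against 182, 180.3 and 145.3 CPM with EGFP(R96C) alone. The groups did not overlap in either pair. Its log2 fold changes were -0.52 ± 0.07 with Ser-tRNA_Arg(CCG) (adjusted p = 5.47e-08) and -0.70 ± 0.07 with Arg-tRNA_Cys(GCA) (adjusted p = 3.95e-11). MVK, which phosphorylates mevalonate (ENSG00000110921.13, chromosome 12, 109573255 to 109598117), had 13.5, 12.4 and 13.8 CPM with Arg-tRNA_Cys(GCA), against 23.7, 21.4 and 20.5 CPM with EGFP(R96C) alone, a log2 fold change of -0.72 ± 0.10 with no overlap. With Ser-tRNA_Arg(CCG) MVK fell by 0.38 on the log2 scale, and ACAT2, the cytosolic thiolase that joins 2 acetyl-CoA molecules, fell with both (log2 fold changes of -0.39 ± 0.09 and -0.37 ± 0.09), although 1 EGFP(R96C) library at 62.2 CPM lay within the Arg-tRNA_Cys(GCA) libraries. MVK overlaps MMAB and ACAT2 overlaps TCP1 and SOD2 on the opposite strand, and with the strand setting of the counting not given, reads of these neighbours could be counted with them.

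PMVK and MVD, which act after MVK, moved otherwise. PMVK, the phosphomevalonate kinase (ENSG00000163344.5, chromosome 1, 154924734 to 154936991), had 47.4, 36.5 and 39.9 CPM with Arg-tRNA_Cys(GCA), against 32.1, 33.8 and 28.2 CPM with EGFP(R96C) alone. The mc-tRNA libraries were all above, with a log2 fold change of 0.40 ± 0.11, but it was -0.15 under library totals and lost its call without Arg-tRNA_Cys(GCA) replicate 1 (adjusted p = 0.072). In another pair PMVK had 18.8, 19.8 and 14.6 CPM with Arg-tRNA_Trp(CCA), against 22.5, 23.9 and 27.1 CPM with EGFP(R96W) alone, all below, at -0.47 ± 0.11 (adjusted p = 0.000993). MVD, the diphosphomevalonate decarboxylase (ENSG00000167508.11, chromosome 16, 88651935 to 88663161), had 51.8, 53.95 and 50.5 CPM with Arg-tRNA_Trp(CCA), against 37.2, 37.9 and 42.6 CPM with EGFP(R96W) alone. The groups did not overlap, and the log2 fold change was 0.41 ± 0.08 (adjusted p = 5.11e-05). It was also higher with Arg-tRNA_Cys(GCA), at 0.34 ± 0.08, though at -0.21 under library totals. With Ser-tRNA_Arg(CCG) it fell by 0.20 with overlapping libraries, a call lost without any 1 of EGFP(R65) replicate 3 and Ser-tRNA_Arg(CCG) replicates 1 and 2 (adjusted p = 0.0896 to 0.159) and with RLE factors (0.0591) or DESeq2 (0.0645). HMGCS1 and IDI1 were called higher both with Arg-tRNA_Trp(CCA), where MVD rose the most of these enzymes, and with Arg-tRNA_His(GUG). HMGCS1, the cytosolic synthase of HMG-CoA (ENSG00000112972.14, chromosome 5, 43289395 to 43313512), had 143.7, 152.4 and 142.2 CPM with Arg-tRNA_Trp(CCA), against 133.1, 117 and 101 CPM with EGFP(R96W) alone, and 138.5, 152.1 and 152.8 CPM with Arg-tRNA_His(GUG), against 123, 124 and 115 CPM with EGFP(R96H) alone, with no overlap in either. Its log2 fold changes were 0.32 ± 0.07 (adjusted p = 0.000418) and 0.29 ± 0.07 (adjusted p = 0.0191). IDI1, the isopentenyl diphosphate isomerase, had 143.8, 155.9 and 164 CPM with Arg-tRNA_His(GUG), against 121, 119 and 120.3 CPM with EGFP(R96H) alone, again without overlap, at 0.37 ± 0.08 (adjusted p = 0.0148). With Arg-tRNA_Trp(CCA) IDI1 was at 0.21 ± 0.08 with overlapping libraries, a call lost without any 1 of replicates 2 and 3 of either group (adjusted p = 0.0622 to 0.285), under library totals (0.441) and in a fit of only the 6 libraries compared (0.0635), while with Arg-tRNA_Cys(GCA) it fell, at -0.33 ± 0.09.

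The 11 enzymes from squalene to cholesterol fell in part with Arg-tRNA_Cys(GCA) (3 rose, 6 fell) on the TMM scale. They were split with Ser-tRNA_Arg(CCG) and with Arg-tRNA_Trp(CCA) (2 rose, 3 fell in each). In each this was 18.2% and 27.3%, beside 26.6% and 30.7% of all genes with Ser-tRNA_Arg(CCG) and 20.7% and 21.7% with Arg-tRNA_Trp(CCA). Under library totals 1 of these enzymes rose and 10 fell with Arg-tRNA_Cys(GCA), and 0 rose and 6 fell with Arg-tRNA_Trp(CCA). SQLE and LSS, consecutive steps that oxidise squalene and close its rings into lanosterol, fell the furthest of them. SQLE, the squalene epoxidase (ENSG00000104549.11, chromosome 8, 124998497 to 125022283), had 75.6, 73.4 and 77.95 CPM with Arg-tRNA_Cys(GCA), against 134.4, 132.7 and 147.97 CPM with EGFP(R96C) alone. The groups were far apart, with a log2 fold change of -0.87 ± 0.08 (adjusted p = 5.16e-12). LSS, the lanosterol synthase (ENSG00000160285.14, chromosome 21, 46188141 to 46228824), had 45.3, 43.99 and 47.5 CPM with Arg-tRNA_Cys(GCA), against 86.5, 82.5 and 86.2 CPM with EGFP(R96C) alone, equally without overlap, at -0.90 ± 0.06 (adjusted p = 9e-16). LSS also fell with Ser-tRNA_Arg(CCG) and Arg-tRNA_Trp(CCA), by 0.33 and 0.25 on the log2 scale, whereas SQLE was at 0.17 and 0.06 there and was not called by edgeR; DESeq2 called SQLE higher with Ser-tRNA_Arg(CCG). With Arg-tRNA_His(GUG) SQLE was one of the 3 rises: it had 173, 193 and 187 CPM with Arg-tRNA_His(GUG), against 159.04, 155.8 and 140.6 CPM with EGFP(R96H) alone, without overlap, at 0.28 ± 0.08 (adjusted p = 0.0395), and library totals ended that call (0.0692). FDFT1, the squalene synthase that feeds both, fell with Arg-tRNA_Cys(GCA) (-0.42 ± 0.07) and with Ser-tRNA_Arg(CCG) (-0.24 ± 0.07; adjusted p = 0.102 without EGFP(R65) replicate 3). NSDHL, which removes a carboxyl group from the sterol ring, and DHCR7, the 7-dehydrocholesterol reductase, fell with Arg-tRNA_Cys(GCA), at -0.40 ± 0.09 and -0.27 ± 0.07.

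HSD17B7, a 3-ketosteroid reductase of the same route (ENSG00000132196.13, chromosome 1, 162790702 to 162812817), rose where these enzymes fell. It had 57.1, 53.96 and 58.9 CPM with Arg-tRNA_Cys(GCA), against 29.7, 28.2 and 21.5 CPM with EGFP(R96C) alone. All mc-tRNA libraries were above, with a log2 fold change of 1.10 ± 0.08 (adjusted p = 2.42e-14), which remained 0.56 and called under library totals. HSD17B7 also had 34.6, 33.7 and 34.7 CPM with Ser-tRNA_Arg(CCG), against 23.7, 23.5 and 24.2 CPM with EGFP(R65) alone, again all above, at 0.53 ± 0.08 (adjusted p = 9.23e-07). Genes named as copies of HSD17B7 are in GENCODE 29, and how alike their sequences are was not measured. The counted alignments were unique, so reads that fit HSD17B7 and a copy equally well could be left out. HSD17B7P2 had 11.002 to 13.95 CPM with Arg-tRNA_Cys(GCA) and 8.19 to 10.05 CPM with EGFP(R96C) alone, and 10.8 to 12.3 CPM with Ser-tRNA_Arg(CCG) against 13.6 to 15.4 CPM with EGFP(R65) alone; HSD17B7P1 had at most 1 count in any library. TM7SF2, a sterol reductase whose gene overlaps VPS51 on the same strand, rose with Ser-tRNA_Arg(CCG) (0.32 ± 0.10; adjusted p = 0.0727 without Ser-tRNA_Arg(CCG) replicate 2) and fell with Arg-tRNA_Cys(GCA) (-0.58 ± 0.10) and Arg-tRNA_Trp(CCA) (-0.43 ± 0.10). In the last pair it had 11.5, 11.3 and 12.5 CPM with Arg-tRNA_Trp(CCA), against 15.8, 15.4 and 16.5 CPM with EGFP(R96W) alone, with no overlap. MSMO1, the methylsterol monooxygenase, had 79.2, 85.7 and 84.2 CPM with Arg-tRNA_Trp(CCA), against 72.8, 70.6 and 58.2 CPM with EGFP(R96W) alone, all above, at 0.31 ± 0.09, with an adjusted p of 0.0597 without EGFP(R96W) replicate 3 and 0.102 under library totals. With Arg-tRNA_Cys(GCA) it was at 0.28 ± 0.09 with no overlap, and at -0.26 under library totals. SC5D, the sterol C5 desaturase, fell with Ser-tRNA_Arg(CCG) (-0.47 ± 0.07) and with Arg-tRNA_Trp(CCA) (-0.22 ± 0.07; adjusted p = 0.0589 without EGFP(R96W) replicate 1), and was higher with Arg-tRNA_Cys(GCA) at 0.25 ± 0.07, or -0.29 under library totals and not called without the filter on low counts (0.062). CYP51A1, the lanosterol demethylase, was the least abundant member by these counts. Its gene overlaps AC000120.2 and AC000120.3 on the same strand and CYP51A1-AS1 on the other. How reads in these overlaps were assigned is not given, so its low level may not be its true abundance. CYP51A1 was called in 1 comparison, with Arg-tRNA_Trp(CCA), at 0.30 ± 0.12 with overlapping libraries and an adjusted p of 0.04997. The call was lost without EGFP(R96W) replicate 1 or 2 or Arg-tRNA_Trp(CCA) replicate 1 or 3 (0.14 to 0.198), under library totals (0.271) and in a fit of only the 6 libraries compared (0.0752). EBP, the sterol isomerase, was called in none of the 5 comparisons, with log2 fold changes of -0.08 to 0.07.

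The 5 regulators and transport genes fell where they were called: 4 with Ser-tRNA_Arg(CCG), 3 with Arg-tRNA_Cys(GCA), 2 with Arg-tRNA_Trp(CCA), 1 with Arg-tRNA_His(GUG), and 0 rose in these comparisons on the TMM scale. Under library totals 4 fell with Ser-tRNA_Arg(CCG), 5 with Arg-tRNA_Cys(GCA), 3 with Arg-tRNA_Trp(CCA) and 0 with Arg-tRNA_His(GUG), and 0 rose. INSIG1 (ENSG00000186480.12, chromosome 7, 155297776 to 155310235) had 41.8, 49.0004 and 48.1 CPM with Ser-tRNA_Arg(CCG), against 68.7, 70.4 and 87.2 CPM with EGFP(R65) alone, and 117, 127 and 149.4 CPM with Arg-tRNA_Cys(GCA), against 188, 192 and 224 CPM with EGFP(R96C) alone. Every mc-tRNA library lay below every library of its reporter alone. The log2 fold changes were -0.71 ± 0.11 (adjusted p = 5.18e-06) and -0.62 ± 0.11 (adjusted p = 1.85e-05). INSIG1 also had 290.5, 315 and 324 CPM with Arg-tRNA_His(GUG), against 265, 252 and 248 CPM with EGFP(R96H) alone. All 3 were above, but the log2 fold change of 0.28 ± 0.11 was not called (adjusted p = 0.17). STARD4, a carrier that moves sterol between membranes (ENSG00000164211.12, chromosome 5, 111496033 to 111512590), had 17.99, 18.5 and 20.9 CPM with Ser-tRNA_Arg(CCG), against 37.001, 39.9 and 37.97 CPM with EGFP(R65) alone. That is a log2 fold change of -1.002 ± 0.13 with no overlap (adjusted p = 1.25e-07). STARD4 also had 35.2, 30.5 and 39.1 CPM with Arg-tRNA_Trp(CCA), against 52.4, 53.8 and 47.3 CPM with EGFP(R96W) alone, also all below, at -0.55 ± 0.12 (adjusted p = 0.000532). With Arg-tRNA_Cys(GCA) it was at -0.16 ± 0.12 and not called, but it was called without Arg-tRNA_Cys(GCA) replicate 2 (-0.33; adjusted p = 0.0274).

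SREBF1, which encodes the SREBP form tied most closely to fatty acid genes (ENSG00000072310.16, chromosome 17, 17810399 to 17837002), fell in 3 comparisons. It had 31.3, 29.6 and 29.9 CPM with Ser-tRNA_Arg(CCG), against 38.96, 38.8 and 43.3 CPM with EGFP(R65) alone. In another pair it had 30.3, 29.95 and 36.4 CPM with Arg-tRNA_Trp(CCA), against 43.9, 45.4 and 54.2 CPM with EGFP(R96W) alone. In the last it had 40.1, 38.8 and 44.6 CPM with Arg-tRNA_His(GUG), against 50.5, 49.5 and 50.5 CPM with EGFP(R96H) alone. None of these 3 pairs overlapped, and the log2 fold changes were -0.41 ± 0.08, -0.57 ± 0.08 and -0.28 ± 0.08 (adjusted p = 4.57e-05, 5.04e-07 and 0.0466). With Arg-tRNA_Cys(GCA) SREBF1 was at 0.17 ± 0.08, not called, and called higher without EGFP(R96C) replicate 3 (0.23; adjusted p = 0.0218) and lower under library totals (-0.38). SREBF2, whose product mainly drives cholesterol genes (ENSG00000198911.11, chromosome 22, 41833079 to 41907308), was called in 1 comparison: it had 214, 205 and 215 CPM with Arg-tRNA_Cys(GCA), against 249.95, 234 and 242 CPM with EGFP(R96C) alone, all below, at -0.19 ± 0.06 (adjusted p = 0.00578). In the other comparisons it was at -0.10 to 0.02, and the F-test of whether its effects differed between mc-tRNAs did not pass the threshold. SCAP fell with Ser-tRNA_Arg(CCG) (-0.28 ± 0.06) and Arg-tRNA_Cys(GCA) (-0.36 ± 0.06), and with Arg-tRNA_Trp(CCA) it was at 0.11 ± 0.06, called only without EGFP(R96W) replicate 3 (0.20; adjusted p = 0.0144).

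**Figure D2:**
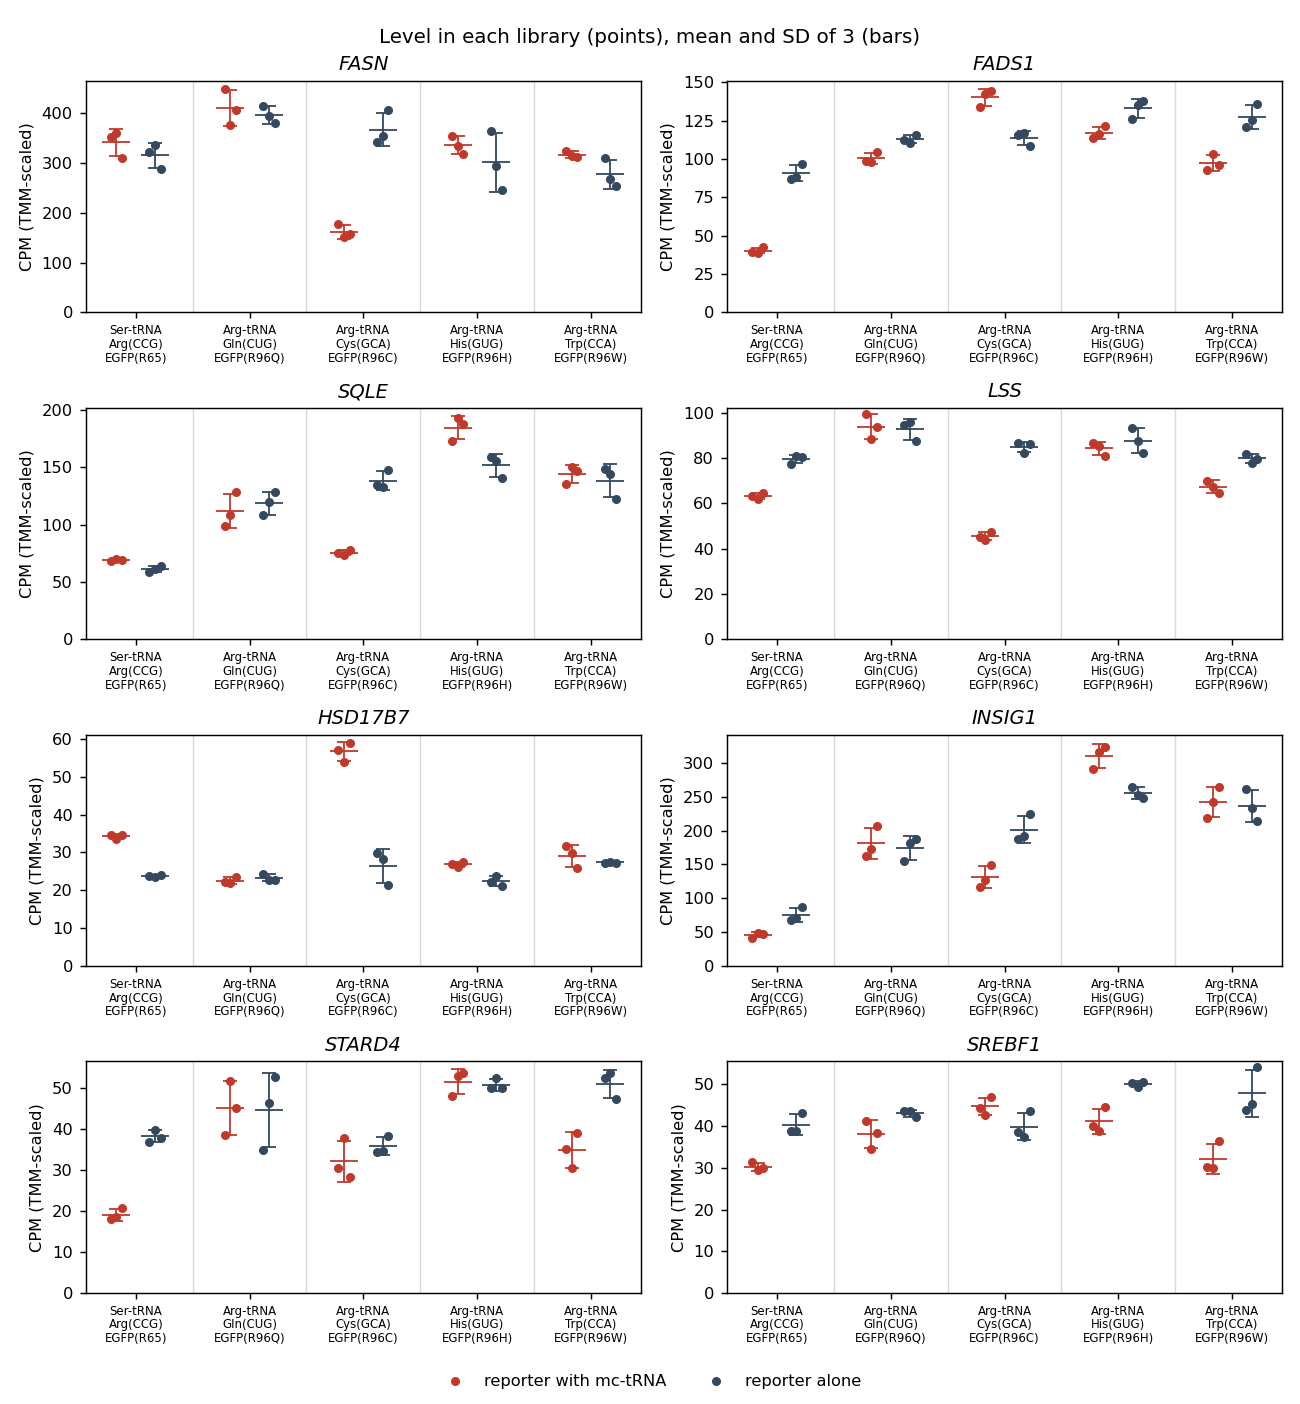
Level of 8 members in CPM (y axis, from 0) in every library; red points are the reporter with its mc-tRNA, dark points the reporter alone, and bars are the mean and SD of 3 libraries. FASN, SQLE and LSS drop with Arg-tRNA_Cys(GCA), FADS1 and STARD4 with Ser-tRNA_Arg(CCG), and SQLE and INSIG1 are low in both EGFP(R65) groups.

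On the TMM scale the 8 genes of fatty acid and lipid synthesis fell in part with Arg-tRNA_Cys(GCA) and Arg-tRNA_Trp(CCA) (1 rose, 4 fell in each). They were split with Ser-tRNA_Arg(CCG) (2 rose, 3 fell), and 0 were called with the other 2 mc-tRNAs. Under library totals 0 rose and 8 fell with Arg-tRNA_Cys(GCA), and 1 rose and 4 fell with Arg-tRNA_Trp(CCA). On that scale 0 rose and 3 fell with Ser-tRNA_Arg(CCG), and 1 fell with Arg-tRNA_His(GUG). FASN, the fatty acid synthase (ENSG00000169710.8, chromosome 17, 82078333 to 82098332), had 177, 150.9 and 156.5 CPM with Arg-tRNA_Cys(GCA), against 341, 353 and 404 CPM with EGFP(R96C) alone. This was the deepest fall of any member in that comparison, a log2 fold change of -1.18 ± 0.10 with no overlap (adjusted p = 1.12e-10). In the other 4 comparisons FASN was at 0.05 to 0.19 and not called, though with Arg-tRNA_Trp(CCA) it was called higher without EGFP(R96W) replicate 1 (0.28; adjusted p = 0.0475). ACACA, the acetyl-CoA carboxylase that supplies malonyl-CoA to FASN, also fell with Arg-tRNA_Cys(GCA) (-0.55 ± 0.06) and with Arg-tRNA_Trp(CCA) (-0.22 ± 0.06). With Ser-tRNA_Arg(CCG) it was at 0.14 ± 0.06, a rise lost without any 1 of the 3 EGFP(R65) libraries or Ser-tRNA_Arg(CCG) replicates 1 and 2 (adjusted p = 0.0717 to 0.175) and under library totals (0.117) or with no filter on low counts (0.14). ACLY, the ATP citrate lyase that makes the acetyl-CoA, was called in none of the 5 comparisons, at 0.00 to 0.15.

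The desaturases differed from one another. FADS1, the desaturase of long polyunsaturated fatty acids (ENSG00000149485.18, chromosome 11, 61799625 to 61829318), had 39.7, 39.003 and 42.4 CPM with Ser-tRNA_Arg(CCG), against 87.1, 88.3 and 96.9 CPM with EGFP(R65) alone. This was the deepest fall of any member with Ser-tRNA_Arg(CCG), at -1.17 ± 0.06 and far outside the spread (adjusted p = 1.09e-17). In another pair FADS1 had 92.8, 103 and 95.9 CPM with Arg-tRNA_Trp(CCA), against 121, 125 and 136.04 CPM with EGFP(R96W) alone, all below, at -0.39 ± 0.06 (adjusted p = 1.69e-06). It also had 134.1, 142.1 and 144.2 CPM with Arg-tRNA_Cys(GCA), against 116, 117 and 108 CPM with EGFP(R96C) alone, all above on the TMM scale at 0.30 ± 0.06 and -0.24 under library totals. The 2 desaturase genes FADS1 and FADS2 overlap on opposite strands, FADS2 also overlaps FEN1 on its own strand, and the strand setting of the counting is not given in the sources used here. FADS2, which acts before FADS1 in that route, was at 0.17 ± 0.07 with Ser-tRNA_Arg(CCG), a rise lost without EGFP(R65) replicate 1 or 2 or Ser-tRNA_Arg(CCG) replicate 1 or 3 (adjusted p = 0.108 to 0.149) under library totals (0.107) or with no filter on low counts (0.108). SCD, the stearoyl-CoA desaturase that makes oleate and the most abundant member per kilobase, fell with 3 mc-tRNAs. It had 274, 274 and 287 CPM with Ser-tRNA_Arg(CCG), against 377, 380.002 and 397 CPM with EGFP(R65) alone, and 519, 529 and 529.7 CPM with Arg-tRNA_Cys(GCA), against 824, 805 and 762 CPM with EGFP(R96C) alone. The groups did not overlap, and the log2 fold changes were -0.47 ± 0.05 and -0.60 ± 0.05. With Arg-tRNA_Trp(CCA) the fall was -0.15 ± 0.05, and its adjusted p was 0.0642 and 0.0683 without replicates 1 and 3 of Arg-tRNA_Trp(CCA), 0.053 without the EGFP(R65) libraries, 0.124 with no filter on low counts and 0.13 in a fit of only the 6 libraries compared. ELOVL6, which lengthens palmitate, fell in the same 3 comparisons, at -0.34 ± 0.07, -0.27 ± 0.07 and -0.29 ± 0.07. LPIN1, a phosphatidate phosphatase of glycerolipid synthesis (ENSG00000134324.11, chromosome 2, 11677595 to 11827409), was called in 1 comparison, in which it had 57.9, 51.5 and 52.9 CPM with Arg-tRNA_Trp(CCA), against 41.7, 43.97 and 43.8 CPM with EGFP(R96W) alone. All 3 were above, at 0.33 ± 0.07 (adjusted p = 0.000165).

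Across the 5 comparisons there were 61 calls of members, of which 46 held whichever library of the pair was left out. Of the 31 members, 4 (LSS, SREBF1, SCD and ELOVL6) fell in 3 comparisons, or 12.9% beside 7.4% of all genes. With both Ser-tRNA_Arg(CCG) and Arg-tRNA_Cys(GCA) 9 fell (29%, beside 13.3% of all genes), and 8 rose in at least 1 comparison and fell in another (25.8%, beside 20.1% of all genes). All 4 calls with Arg-tRNA_His(GUG) were lost when any 1 of 4 or 5 of the 6 libraries was left out. In the fits that lost the call, the log2 fold change was 0.32 to 0.37 for IDI1 and 0.26 to 0.33 for HMGCS1. It was 0.23 to 0.32 for SQLE and -0.25 to -0.30 for SREBF1. With all libraries these 4 members were at 0.37, 0.29, 0.28 and -0.28. IDI1 kept its call only without EGFP(R96H) replicate 1 or Arg-tRNA_His(GUG) replicate 1 (adjusted p = 0.0563 to 0.091 without each of the other 4 libraries). HMGCS1 and SQLE kept theirs only without EGFP(R96H) replicate 1 (0.0547 to 0.158 and 0.0781 to 0.272), and SREBF1 only without Arg-tRNA_His(GUG) replicate 3 (0.0934 to 0.262). SQLE and SREBF1 also lost theirs without the EGFP(R65) libraries (0.0723 and 0.0836), and SREBF1 under library totals (0.0526). At an unadjusted p under 0.05, 12 members were higher and 3 lower with Arg-tRNA_His(GUG), which are 38.7% and 9.68% of the members, beside 8.57% and 7.69% of all genes. With Arg-tRNA_Gln(CUG), for which edgeR called 0 members and DESeq2 also called 0, 0 members were higher and 3 (9.68%) lower at an unadjusted p under 0.05, beside 5.32% and 4.85% of all genes. The largest change there was of PMVK, which had 24.3, 18.7 and 19.4 CPM with Arg-tRNA_Gln(CUG), against 28.8, 28.3 and 24.6 CPM with EGFP(R96Q) alone. The 3 mc-tRNA libraries were all below, at -0.39 ± 0.11 (adjusted p = 0.122), and PMVK was called without Arg-tRNA_Gln(CUG) replicate 1 (-0.52; adjusted p = 0.0293). With Arg-tRNA_Trp(CCA) MVK was called lower without replicate 1 of that mc-tRNA (-0.27), ACAT2 and FDFT1 were called lower without replicate 2 (-0.23 and -0.20) and NSDHL was called higher without replicate 3 (0.27), although none of these 4 was called with all libraries. Beside the results with Ser-tRNA_Arg(CCG), the summed level of the 11 markers of other cells was 18.8 to 19.8 CPM, against 3.43 to 3.63 CPM with EGFP(R65) alone, mostly from ALB (8.61 to 10.2 CPM against 0.413 to 0.675 CPM) and PLIN1 (8.94 to 9.46 CPM against 1.68 to 2.25 CPM). The PLIN1 gene overlaps PEX11A on the same strand, and how reads in this overlap were assigned is not given. With Arg-tRNA_Cys(GCA) the sum of the 11 markers was 7.05 to 7.68 CPM against 4.86 to 6.26 CPM. In the other 3 pairs the ranges of both groups overlapped. Single markers were called in other pairs too. ALB rose by 1.07 ± 0.40 with Arg-tRNA_Trp(CCA) and COL3A1 was at -0.98 ± 0.20 there, ALB rose by 1.35 ± 0.37 with Arg-tRNA_His(GUG), and ALB and COL3A1 were at 2.40 ± 0.38 and 0.52 ± 0.17 with Arg-tRNA_Cys(GCA), on the log2 scale; COL3A1 was at -1.56 ± 0.27 with Ser-tRNA_Arg(CCG). In all libraries the markers of blood, keratinocytes and ADIPOQ and DCN were at no more than 0.153 CPM, with HBB at 0 counts in 29 and KRT14 in 27 of the 30 libraries. Of the 8 HEK293 markers, 6 were higher and 2 lower with Ser-tRNA_Arg(CCG) (log2 fold changes of -1.43 to 1.10), beside 26.6% and 30.7% of all genes. With Arg-tRNA_Cys(GCA) 2 were higher and 3 lower, beside 30.2% and 30.5% of all genes. Arg-tRNA_Trp(CCA) also gave 2 higher and 3 lower, beside 20.7% and 21.7%, and 0 were called with the other 2 mc-tRNAs. The part of the markers of either kind in the results was not tested. In sorted bulk RNA, fewer cells that express a gene and less of its RNA per cell cannot be told apart.

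Whether a member moved unequally with the 5 mc-tRNAs was tested directly. The F-test called 26 of the 31 members, beside 72.5% of all genes; MSMO1, FADS2, SREBF2, EBP and ACLY were not called. Each of the 10 pairs of effects was then tested, each adjusted over all genes, and every effect had its own reporter-alone libraries. The shares of all genes given for the pairs count both directions together. The splits of members into higher and lower therefore have no share of all genes beside them. They are not read as a result about the members. The share of the 31 members called was below that of all genes for Arg-tRNA_Cys(GCA) and Arg-tRNA_Gln(CUG) against Ser-tRNA_Arg(CCG) and for Arg-tRNA_His(GUG) against Arg-tRNA_Gln(CUG). In the remaining pairs it was above. Between Arg-tRNA_His(GUG) and Arg-tRNA_Cys(GCA) the effects differed for 22 members (16 higher with Arg-tRNA_His(GUG), 6 lower), against 48.2% of all genes. Between Arg-tRNA_Cys(GCA) and Arg-tRNA_Gln(CUG) the effects differed for 18 members (4 higher with Arg-tRNA_Cys(GCA), 14 lower), against 50.2% of all genes. Between Arg-tRNA_Trp(CCA) and Arg-tRNA_Cys(GCA) the effects differed for 18 members (13 higher with Arg-tRNA_Trp(CCA), 5 lower), against 43.7% of all genes. With only the widest pair of each member taken, the widest of these differences was of FASN. It was 1.37 ± 0.15 on the log2 scale between Arg-tRNA_Trp(CCA) and Arg-tRNA_Cys(GCA). SQLE came next at 1.16 ± 0.11 between Arg-tRNA_His(GUG) and Arg-tRNA_Cys(GCA), then HSD17B7 at 1.15 ± 0.11 between Arg-tRNA_Cys(GCA) and Arg-tRNA_Gln(CUG). Between Arg-tRNA_Cys(GCA) and Ser-tRNA_Arg(CCG) the effects differed for 14 members (6 higher with Arg-tRNA_Cys(GCA), 8 lower), against 56.5% of all genes. FADS1 separated these by 1.47 ± 0.08, the widest difference of any member over the 10 pairs (adjusted p = 6.48e-17), TM7SF2 by -0.91 ± 0.14 and SC5D by 0.73 ± 0.09. All pair differences and splits are on the TMM scale, and the pairs were not run under library totals. Under those totals the effects with Arg-tRNA_Cys(GCA) were -0.24 for FADS1, -1.13 for TM7SF2 and -0.29 for SC5D. On the TMM scale these 3 effects were 0.30, -0.58 and 0.25. With Arg-tRNA_His(GUG) over Ser-tRNA_Arg(CCG) the effects differed for 16 members (14 higher with Arg-tRNA_His(GUG), 2 lower), against 41.7% of all genes; with Arg-tRNA_Trp(CCA) over Ser-tRNA_Arg(CCG) the effects differed for 16 members (12 higher with Arg-tRNA_Trp(CCA), 4 lower), against 45.3% of all genes. With Arg-tRNA_Gln(CUG) over Ser-tRNA_Arg(CCG) the effects differed for 13 members (11 higher with Arg-tRNA_Gln(CUG), 2 lower), against 44.6% of all genes. STARD4 and INSIG1 differed most between Arg-tRNA_His(GUG) and Ser-tRNA_Arg(CCG), by 1.02 ± 0.17 and 0.99 ± 0.15. With Arg-tRNA_Trp(CCA) over Arg-tRNA_Gln(CUG) the effects differed for 10 members (3 higher with Arg-tRNA_Trp(CCA), 7 lower), against 25.3% of all genes, and with Arg-tRNA_Trp(CCA) over Arg-tRNA_His(GUG) the effects differed for 10 members (3 higher with Arg-tRNA_Trp(CCA), 7 lower), against 22.8% of all genes. Between Arg-tRNA_His(GUG) and Arg-tRNA_Gln(CUG) edgeR called 0 members, 10 at an unadjusted p under 0.05, beside 0.811% of all genes; the 10 stand beside 13% of all genes at that unadjusted p, and DESeq2 was not run on the pairs.

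**Figure D3:**
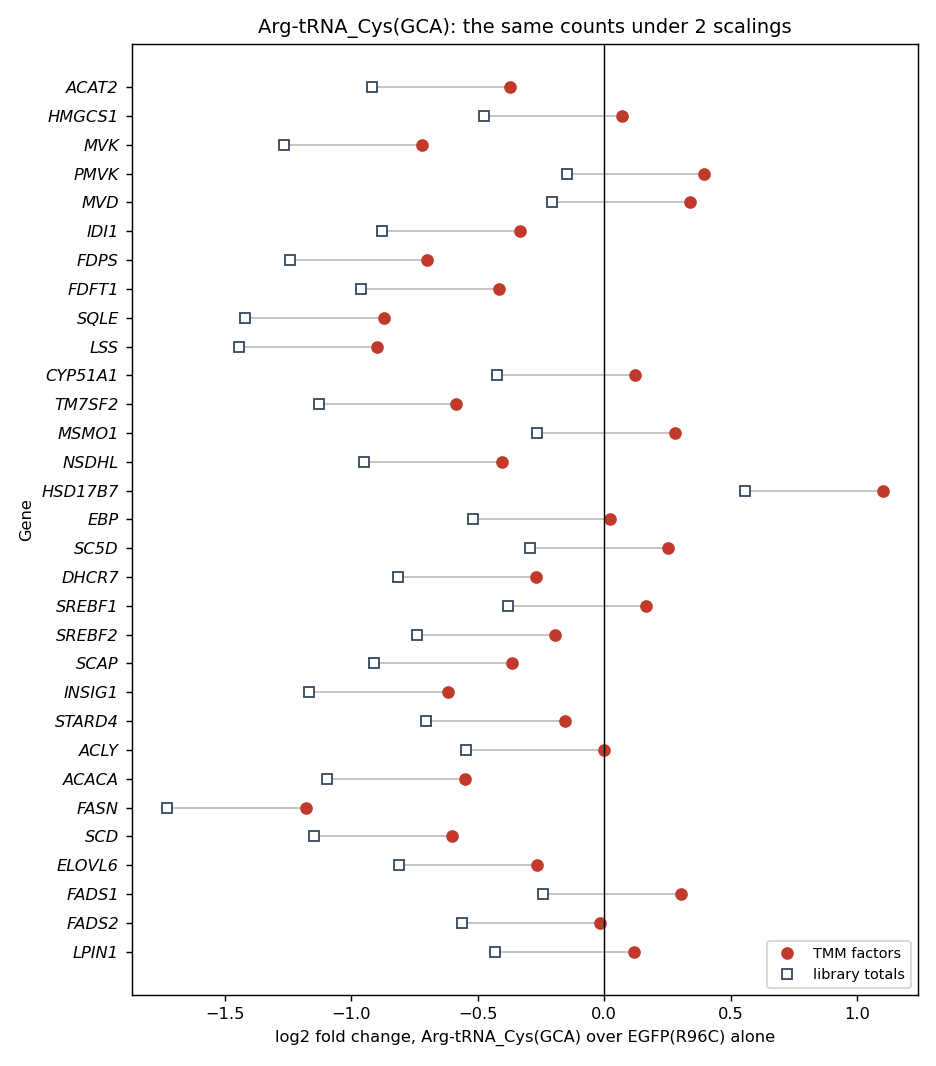
Log2 fold change of each member with Arg-tRNA_Cys(GCA) over EGFP(R96C) alone (x axis) from the same counts scaled by TMM factors (filled points) and by library totals (open squares). Every member lies further left under library totals, and HSD17B7, at 1.10 and 0.56, is the one member above 0 on both scales.

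The balance of rises and falls with Arg-tRNA_Cys(GCA) depended on the scale. Under library totals 1 member (HSD17B7) was higher and 29 were lower, beside 6 and 17 on the TMM scale. These are 3.23% and 93.5% of the members, beside 14.1% and 55.6% of all genes under library totals.

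With the reporter alone, the members already differed between reporters. Per kilobase of exon, SCD and ACLY were highest, at 138.5 and 126 CPM per kilobase over the 5 reporter-alone groups, followed by INSIG1 at 51.7 and FDPS at 41.4, and MVK and CYP51A1 were lowest at 3.11 and 2.22. Among the 4 EGFP(R96) reporters alone, an F-test called 25 of 31 members, beside 54.7% of all genes. FDFT1, SCAP, SREBF2, FADS2, MVK and CYP51A1 were not called. The mean was highest with EGFP(R96H) for 11 members, EGFP(R96C) for 9, EGFP(R96W) for 8 and EGFP(R96Q) for 3, and lowest with EGFP(R96Q) for 16. The highest over the lowest mean was 1.11-fold to 1.48-fold, with IDI1 at 1.48 and INSIG1 at 1.46. EGFP(R65) alone was lower still for most members: for 19 members all 3 EGFP(R65) libraries lay below all 12 EGFP(R96) reporter-alone libraries, for 1 (LPIN1) above, and for 11 they overlapped, beside 22.4% of all genes below and 23% above. INSIG1 averaged 75.4 CPM with EGFP(R65) alone and 217 CPM over the EGFP(R96) reporters alone, SQLE 61.4 and 136.8 CPM, ACLY 328 and 743 CPM, and PMVK 11.2 and 27.3 CPM. No test was made of this difference, because reporter and batch cannot be told apart, and the effect of Ser-tRNA_Arg(CCG) was measured from these lower levels.

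**Figure D4:**
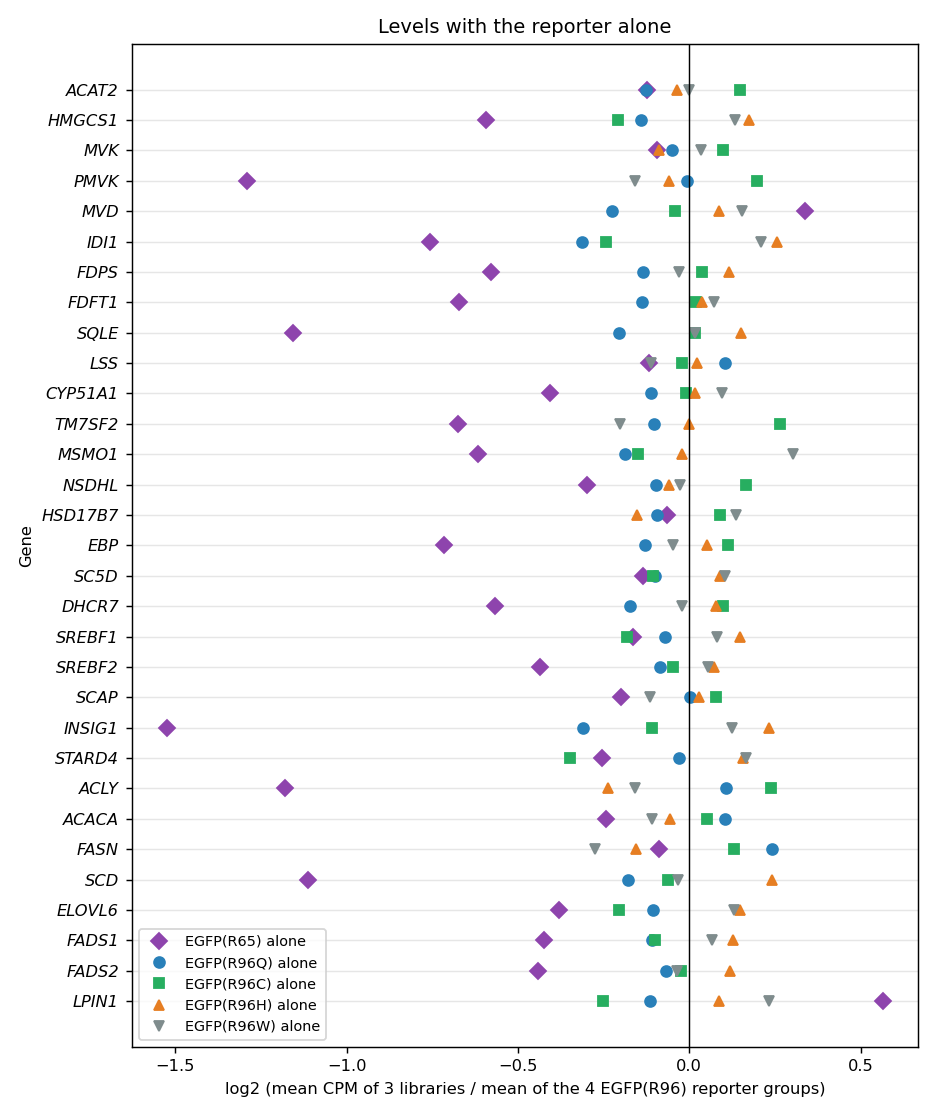
Mean level of each member with each reporter alone, as log2 of the ratio to the mean of the 4 EGFP(R96) reporter-alone groups (x axis), 3 libraries per point. EGFP(R65), the diamonds, lies to the left for most members, furthest for INSIG1 at -1.52, and to the right for LPIN1 and MVD.

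Other genes of the pathway, chosen with earlier results of these data known, moved in both directions. The counts of rises and falls below stand beside 26.6% and 30.7% of all genes with Ser-tRNA_Arg(CCG), 30.2% and 30.5% with Arg-tRNA_Cys(GCA) and 20.7% and 21.7% with Arg-tRNA_Trp(CCA). They are on the TMM scale, and these lists were not counted under library totals. Of 8 genes of SREBP processing and sterol sensing, 2 rose and 2 fell both with Ser-tRNA_Arg(CCG) and with Arg-tRNA_Trp(CCA), 3 rose and 4 fell with Arg-tRNA_Cys(GCA), 1 fell with Arg-tRNA_His(GUG) and 0 were called with Arg-tRNA_Gln(CUG). ERLIN2, part of the complex that directs degradation of sterol-regulated proteins, was at -1.64 ± 0.06 (log2 fold change ± SE) with Arg-tRNA_Cys(GCA) and at -0.61 ± 0.06 with Arg-tRNA_Trp(CCA). INSIG2, the second INSIG gene, fell with Ser-tRNA_Arg(CCG) (-0.48 ± 0.08), and MBTPS2, a protease of SREBP cleavage, was the single list gene called with Arg-tRNA_His(GUG) (-0.29 ± 0.07). Of 11 genes of sterol trafficking, storage and efflux, 5 rose and 4 fell with Ser-tRNA_Arg(CCG), 6 and 1 with Arg-tRNA_Cys(GCA), 4 and 3 with Arg-tRNA_Trp(CCA), and 0 with the other 2 mc-tRNAs. NR1H3, the LXR-alpha receptor, rose with Ser-tRNA_Arg(CCG) (1.22 ± 0.11). With Arg-tRNA_Cys(GCA) TMEM97, a sterol-responsive membrane protein, was at 1.43 ± 0.06 and MYLIP, a ubiquitin ligase for lipoprotein receptors, at 1.10 ± 0.07; the sterol exporter ABCG1 fell with Arg-tRNA_Trp(CCA) (-0.90 ± 0.13). Of 16 other genes of fatty acid supply, elongation and activation, 2 rose and 11 fell with Ser-tRNA_Arg(CCG), 7 and 5 with Arg-tRNA_Cys(GCA), 4 and 2 with Arg-tRNA_Trp(CCA), and 0 with the other 2. With Ser-tRNA_Arg(CCG) FADS3, a paralog of FADS1, was at -1.34 ± 0.11 and ME1, the malic enzyme that makes NADPH, at -0.88 ± 0.07. With Arg-tRNA_Cys(GCA) ME1 was at 2.30 ± 0.07, ACSL4, which activates arachidonate, at 1.67 ± 0.11, and ELOVL5, an elongase of polyunsaturated fatty acids, at 1.52 ± 0.06, beside the fall of FASN. These rises with Arg-tRNA_Cys(GCA) are larger than the change of the median of all genes between the scales.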

How the data were processed

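Gene-level mRNA data of 30 libraries were used. The authors deposited unnormalized gene counts in a separate file for every library. The submitters' processing notes name STAR, SAMtools and featureCounts and the build hg38; the sources used here give no version, annotation or strand setting. Per the file headers the counted alignments were unique and paired. Per the labels' protocols the libraries were strand-specific TruSeq libraries sequenced on a NovaSeq6000.

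The test was that of edgeR 4.0.16, run in R 4.3.3 (robust quasi-likelihood, TMM factors, filterByExpr, 10 group means over 30 libraries, 20 residual degrees of freedom, biological coefficient of variation 8.24%). The tests were 5 comparisons of mc-tRNA with reporter alone, 2 F-tests and 10 pairs of effects, each adjusted by Benjamini-Hochberg over 22321 genes. Each change is a log2 fold change with its SE, from 3 libraries in either group. Replicates differed by more than counting error (chi-square per degree of freedom of 2.16 to 41.4 over 30 pairs), and p-values measure the spread between such replicates.

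Positions and exon lengths are from GENCODE 29 (GRCh38), taken by gene identifier; IDI1, CYP51A1, HSD17B7 and SCAP carry another version there. FDFT1, SQLE, ACAT2 and FASN had no promoter window in the table used. All members are accounted for; the rule named, in each comparison, the 4 largest called rises and the 4 largest called falls, and members whose effects differed between mc-tRNAs were followed across comparisons. The members and lists were chosen with earlier results of these data known. Alternatives were RLE factors, library totals, no filter on low counts, DESeq2 1.42.0, a replicate block, fits without the EGFP(R65) libraries or with only the 6 libraries compared, and leaving out each library.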

Additional observations from a re-analysis of the deposited data

Results flagged for a closer look

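For 26 members the effects of some pair of mc-tRNAs differed in the edgeR test of the difference itself; the pair with the widest difference is given for each, on the log2 scale. For Arg-tRNA_His(GUG) minus Ser-tRNA_Arg(CCG) these were ACAT2 (0.61), INSIG1 (0.99), STARD4 (1.02) and ELOVL6 (0.51). For Arg-tRNA_Trp(CCA) minus Arg-tRNA_Gln(CUG) it was HMGCS1 (0.38). For Arg-tRNA_His(GUG) minus Arg-tRNA_Cys(GCA) these were MVK (0.70), IDI1 (0.70), FDPS (0.76), FDFT1 (0.55), SQLE (1.16), NSDHL (0.66) and DHCR7 (0.47). For Arg-tRNA_Trp(CCA) minus Arg-tRNA_Cys(GCA) these were PMVK (-0.86), SREBF1 (-0.73), SCAP (0.47) and FASN (1.37). For Arg-tRNA_Trp(CCA) minus Ser-tRNA_Arg(CCG) these were MVD (0.61) and CYP51A1 (0.57). For Arg-tRNA_Cys(GCA) minus Arg-tRNA_Gln(CUG) these were LSS (-0.92), HSD17B7 (1.15) and SCD (-0.64). For Arg-tRNA_Cys(GCA) minus Ser-tRNA_Arg(CCG) these were TM7SF2 (-0.91), SC5D (0.73), ACACA (-0.69) and FADS1 (1.47). For Arg-tRNA_Trp(CCA) minus Arg-tRNA_His(GUG) it was LPIN1 (0.45). A positive value means that the effect was higher with the mc-tRNA named first. All these values are on the TMM scale, and the pairs were not run under library totals.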

How the results depend on the processing

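RLE factors ended 1 call of a member and added 2, and DESeq2 ended 1 and added 5. Library totals moved most with Arg-tRNA_Cys(GCA), to 1 member higher and 29 lower, and turned the sign of HMGCS1 (-0.48), PMVK (-0.15), MVD (-0.21), CYP51A1 (-0.42), MSMO1 (-0.26), EBP (-0.52), SC5D (-0.29), SREBF1 (-0.38), ACLY (-0.54), FADS1 (-0.24) and LPIN1 (-0.43), because every value shifts alike. They gave 3 higher and 17 lower with Arg-tRNA_Trp(CCA), beside 14.3% and 31.3% of all genes. With Ser-tRNA_Arg(CCG) they gave 2 members higher, beside 12865 called genes of which 43.5% were higher. With no filter 2 members were higher with Ser-tRNA_Arg(CCG), beside 12727 called genes of which 48.3% were higher. Without the filter 5 were higher with Arg-tRNA_His(GUG), beside 727 called genes of which 55% were higher. Arg-tRNA_Gln(CUG) then had 1 lower and 196 genes called in all, of which 53.6% were higher. DESeq2 gave 5 higher, 2 lower and 913 genes with Arg-tRNA_His(GUG), in place of 3, 1 and 560, and 242 genes with Arg-tRNA_Gln(CUG), in place of 123. Of the 913 genes 58.6% were higher, and of the 560 genes 62.1%. Fits of only the 6 libraries compared gave 12 higher, 3 lower and 1911 genes with Arg-tRNA_His(GUG), and 66 genes with Arg-tRNA_Gln(CUG). Of the 1911 genes 59.1% were higher. Without the EGFP(R65) libraries Arg-tRNA_His(GUG) had 0 lower and 369 genes, of which 57.5% were higher. Same-numbered samples did not deviate together in every pair of any reporter (correlations of -0.08 to 0.14), although 18 of 30 libraries correlated best with their own number. With a replicate block Arg-tRNA_His(GUG) had 5 higher, 2 lower and 1068 genes, of which 58.2% were higher. Arg-tRNA_Gln(CUG) had 196 genes in that fit. Leaving out 1 library gave 2 to 3 higher with Ser-tRNA_Arg(CCG); 0 to 1 lower and 45 to 93 genes with Arg-tRNA_Gln(CUG); and 0 to 3 higher, 0 to 1 lower and 53 to 636 genes with Arg-tRNA_His(GUG). Apart from the scale, the cause of these moves was not tested.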

Other observations

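The rises and falls of the lists below stand beside 26.6% and 30.7% of all genes with Ser-tRNA_Arg(CCG), 30.2% and 30.5% with Arg-tRNA_Cys(GCA) and 20.7% and 21.7% with Arg-tRNA_Trp(CCA). Of 9 genes of the isoprenoid branch, 4 rose and 5 fell with Ser-tRNA_Arg(CCG), 5 rose and 2 fell with Arg-tRNA_Cys(GCA), 2 rose and 2 fell with Arg-tRNA_Trp(CCA), and 0 were called with the other 2 mc-tRNAs. PDSS1 and PDSS2, the subunits of the enzyme that builds the side chain of coenzyme Q, moved apart: PDSS1 was at -1.22 ± 0.08 and PDSS2 at 0.43 ± 0.07 with Ser-tRNA_Arg(CCG), and they were at -0.57 ± 0.08 and 1.01 ± 0.06 with Arg-tRNA_Cys(GCA) (log2 fold change ± SE, all called by edgeR, on the TMM scale). DHDDS and NUS1, the subunits of the enzyme that makes dolichol precursors, were at 0.78 ± 0.09 and 0.55 ± 0.06 with Arg-tRNA_Cys(GCA), and at 0.45 ± 0.09 and 0.46 ± 0.06 with Arg-tRNA_Trp(CCA). The lists of this section are on the TMM scale and were not counted under library totals. With Arg-tRNA_Cys(GCA) the median over all genes was -0.57 under library totals in place of -0.03, a shift close in size to the NUS1 rise.

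Of 10 genes of fatty acid oxidation, 5 rose and 3 fell with Ser-tRNA_Arg(CCG) and with Arg-tRNA_Cys(GCA), 0 rose and 6 fell with Arg-tRNA_Trp(CCA), and 0 were called with the other 2. CPT2, the inner mitochondrial carnitine palmitoyltransferase, was at 1.30 ± 0.09 and ECI1, an enoyl-CoA isomerase, at -0.96 ± 0.10 with Ser-tRNA_Arg(CCG). CPT1A, the outer mitochondrial carnitine palmitoyltransferase, was at -0.43 ± 0.06 and ACADM, the medium-chain acyl-CoA dehydrogenase, at -0.47 ± 0.08 with Arg-tRNA_Trp(CCA).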
